A study of Mus musculus with 7 samples.

Results

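The ribosome biogenesis factors described here are the genes whose KEGG annotation in the deposited table holds the pathway Ribosome biogenesis in eukaryotes, 76 of the 28666 genes in the table. They were compared between mature and immature dendritic cells. Bone marrow of female C57BL/6 mice aged 6 to 8 weeks was grown for 7 days into bone marrow-derived dendritic cells (BMDCs) with GM-CSF and IL-4. The BMDCs shared a Transwell with the mouse colon carcinoma line MC38 for 24 h with 5 µM of the glutamine antagonist DON, although a legend of the study names DMSO or DON and the labels name neither. Immature BMDCs (3 libraries) and mature BMDCs (4 libraries) were then separated by flow sorting, and the markers of the sort are not given in the sources used here. Both groups therefore share the strain, the way of culture and the tumor cell line, and were sorted by maturation state. They also differed in marker genes of other cell types and states, which are given below.

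Eukaryotic ribosomes are assembled in the nucleolus around a long precursor RNA made by RNA polymerase I. The small subunit processome folds and cuts the part that becomes the small subunit. Small nucleolar ribonucleoproteins (snoRNPs) modify nucleotides along the precursor, and GTPases and AAA ATPases remodel the large subunit precursor. Both particles leave the nucleus through the export receptor Xpo1 with Ran and mature in the cytoplasm, and cells that divide or grow produce more of them than resting cells.

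Total counts were 61296014, 57359581 and 67973086 in immature replicates 1, 2 and 3, and 62285010, 61817255, 54846746 and 60481142 in mature replicates 1, 2, 3 and 4. The paper states for its data in general that they come from 3 or more independent biological experiments, unless a legend says otherwise. The labels do not say whether these libraries came from separate mice or cultures. The p-values therefore measure only the spread between these samples, which may be technical. Mature replicate 3 stood apart. Its median chi-square per gene against the other mature libraries was 17.7 to 25.6, against 4.26 to 5.27 among mature replicates 1, 2 and 4 and 3.83 to 4.54 among immature libraries. The deviation of mature replicate 3 from the other mature libraries had a Spearman rho of -0.548 with gene length over 12447 genes, so that short genes tended to be high and long genes low in it; genes do not count as independent replicates. Over the 69 tested members with a length the rho was -0.655. For mature replicates 1, 2 and 4 the same measure over all these genes was 0.382, 0.426 and 0.296. The counts of called members are therefore also given without this library, as are values of named members whose call it changed.

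Levels within a gene are given as CPM, counts scaled to library size with TMM factors, and levels between genes as FPKM, which is also scaled by gene length. Log2 fold changes are mature minus immature, from edgeR's quasi-likelihood test over all 17461 genes that passed its filter on low counts, with their standard error (SE). Of the 76 members, 73 passed the filter. Rpp25, Nxf3 and Rasl2-9 did not, with at most 0.485 CPM in any library.

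Ribosome biogenesis factors were more often lower than higher in mature BMDCs, and most changes were under 2-fold. At an adjusted p under 0.05, 27 of 73 tested members (37.0%) were lower and 10 (13.7%) were higher. Among all tested genes 22.9% were lower and 23.2% were higher by the same rule. With a log2 fold change of at least 1 in size added, 5 members (6.85%) were lower and 1 (1.37%) was higher, beside 9.95% and 13.2% of all tested genes. The groups did not overlap for 30 members that were lower in every mature library and for 11 that were higher, 41.1% and 15.1% of the tested members, beside 26.7% and 25.4% of all tested genes. The median log2 fold change was -0.19 over the members and 0.06 over all tested genes. Across the alternatives described below, the median of the members ranged from -0.228 to -0.059. The count of members lower by 2-fold ranged from 0 to 6. Among 11758 genes that reached 1 FPKM in 3 or more libraries, 29% were lower and 28.1% higher at an adjusted p under 0.05. Of the 69 members among them, 25 were lower and 11 higher. In bulk samples, fewer cells of a type and less RNA per cell cannot be told apart.

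The summed CPM of the 76 members was 2929, 2984 and 2929 in immature replicates 1, 2 and 3, and 2812, 2696, 2984 and 2790 in mature replicates 1, 2, 3 and 4. The groups overlapped through mature replicate 3, and the ratio of the mature to the immature mean was 0.957. Summed FPKM, which weighs members by level per length, had the opposite order of means, with a ratio of 1.05. It was 676, 720 and 673 in immature and 714, 697, 780 and 703 in mature libraries, and these groups overlapped as well. Without mature replicate 3, 34 members were lower and 13 higher at an adjusted p under 0.05, beside 28.3% and 29.1% of 16954 genes, and 4 were lower and 1 higher with the fold added, beside 10.4% and 13.2%. The members called at the adjusted p alone hold every member called with all libraries and 10 more, and the member no longer past the fold is Heatr1. By role, 1 lower member each was added in UTP-B, UTP-C, both kinds of snoRNP, cytoplasmic large subunit, late small subunit and nuclear export, and 1 higher member each in UTP-C, large subunit and exonucleases. The count of higher members was 5, 6 and 5 without immature replicates 1, 2 and 3, beside 17.3%, 17.7% and 17.2% of all genes tested in those fits. Of the 34 members longer than the median member 17 were lower (50%), beside 32.6% of 5666 tested genes above that length. Of the 35 others 8 were lower (22.9%), beside 26.6% of 6781 genes. With a gene length offset these counts were 15 (44.1%) and 11 (31.4%), beside 32.2% and 28.1% of the same genes. Without mature replicate 3 they were 19 (55.9%) and 13 (37.1%), beside 36.8% of 5661 and 34.4% of 6739 genes. Over the 69 tested members with a length, the log2 fold change had a Spearman rho of -0.245 with length. This rho was -0.194 with the length offset and -0.0973 without mature replicate 3. The part of gene length in the values was not tested further. Of the 27 lower members, 21 were called in every alternative that tested them, and of the 10 higher members Gtpbp4, Nxf1, Rcl1, Rexo5 and Sbds were.

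**Figure D1:**
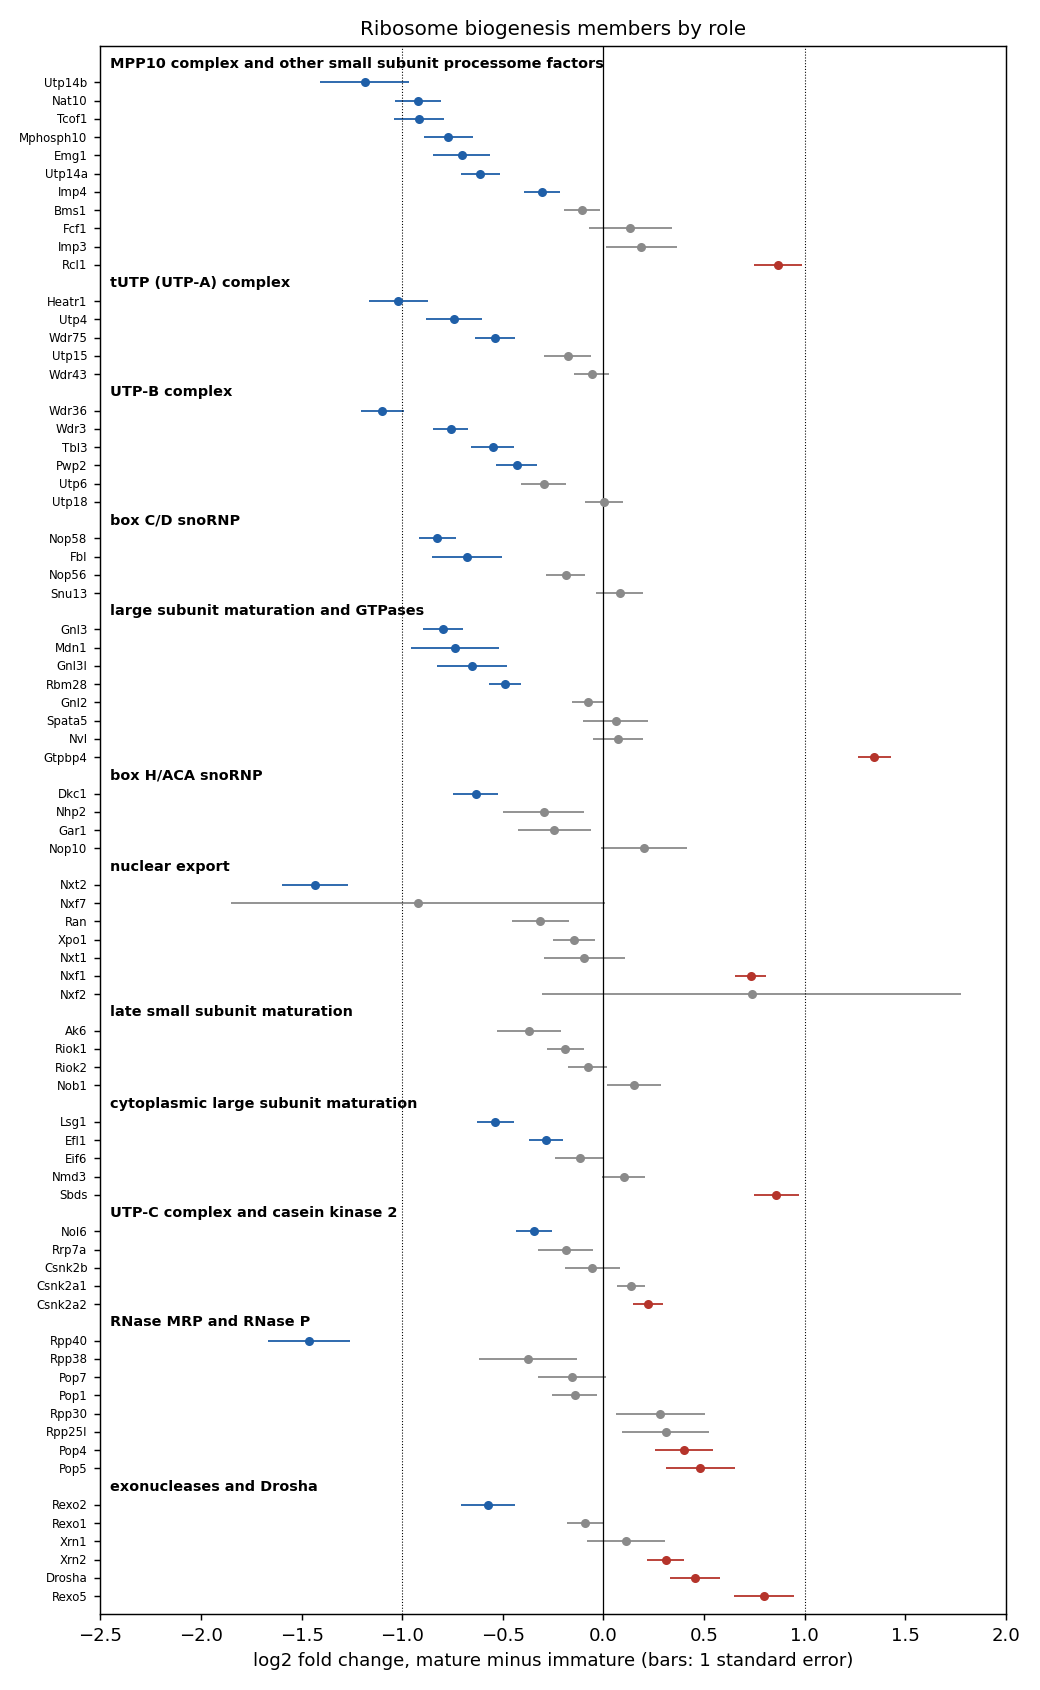
Log2 fold change of each of the 73 tested members (x axis, mature minus immature, bars of 1 SE), grouped by role on the y axis. Blue points were lower and red points higher at an adjusted p under 0.05 (edgeR), grey points were not called, and dotted lines mark a 2-fold change; 27 points are blue and 10 are red.

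Among the 12 roles, UTP-A, UTP-B and the MPP10 complex with other factors of the small subunit processome had the lowest median log2 fold changes. In the UTP-A complex, which binds the nascent precursor RNA, 3 of 5 members were lower (60.0%) and none higher. Among all tested genes these shares were 22.9% and 23.2%. The median log2 fold change of the complex was -0.54. Heatr1 (ENSMUSG00000050244, chromosome 13, 12395027 to 12440289, plus strand, GRCm38) had 49.7, 44.1 and 42.9 CPM in immature replicates 1, 2 and 3 and 25.5, 20.3, 17.7 and 26.3 CPM in mature replicates 1, 2, 3 and 4. Every mature library lay below every immature one, and the mean fell from 45.6 ± 3.64 (SD, n = 3) to 22.5 ± 4.13 (SD, n = 4). The log2 fold change was -1.02 (SE 0.15, adjusted p = 5.47e-04, edgeR), a level 2.03-fold lower. Heatr1 stayed called but under 2-fold when any of 3 libraries was left out, with a log2 fold change of -0.90 without mature replicate 3, its lowest library, -0.97 without mature replicate 2 and -0.96 without immature replicate 1. Utp4 had a log2 fold change of -0.74 and Wdr75 of -0.54. Wdr43, the most abundant member of the complex per length at 7.59 FPKM, had -0.06 (adjusted p = 0.612, edgeR), and its sign turned with library totals alone, the gene length offset, limma and mature replicate 1 alone.

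The UTP-B complex is a second scaffold of the processome. Of its 6 members 4 were lower (66.7%) and none higher, beside 22.9% and 23.2% of all tested genes. Wdr36 (ENSMUSG00000038299, chromosome 18, 32837225 to 32867594, plus strand) had 35.2, 32.6 and 33.4 CPM in immature replicates 1, 2 and 3 and 16.4, 15.5, 13.5 and 17.6 CPM in mature replicates 1, 2, 3 and 4. The groups were well apart, and the log2 fold change was -1.10 (SE 0.11, adjusted p = 5.12e-05, edgeR). Wdr3 (-0.76), Tbl3 (-0.55) and Pwp2 (-0.43) were also lower on the log2 scale. Utp18, the most abundant of the complex at 8.22 FPKM, had a log2 fold change of 0.00 (adjusted p = 0.979, edgeR).

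Among the MPP10 complex and other processome factors, 7 of 11 members were lower (63.6%) and 1 was higher (9.09%). The shares over all tested genes were 22.9% and 23.2%. The median log2 fold change of this role was -0.61. Utp14a and Utp14b encode paralogs of a processome factor, and Utp14b is a retrogene copy that lies within Acsl3 on the same strand. Reads of Utp14b could be shared with Utp14a or Acsl3 in the authors' counting, so its value is uncertain. Utp14b (ENSMUSG00000079470, chromosome 1, 78658038 to 78671512, plus strand) had 7.19, 6.06 and 5.72 CPM in immature replicates 1, 2 and 3 and 3.56, 3.05, 2.48 and 2.00 CPM in mature replicates 1, 2, 3 and 4. Utp14a was more abundant, with 39.6, 43.0 and 38.3 CPM in immature and 24.2, 25.2, 29.5 and 26.6 CPM in mature libraries. Neither gene overlapped between the groups, and the log2 fold changes were -1.19 (SE 0.22, adjusted p = 0.00237, edgeR) for Utp14b and -0.61 (SE 0.10, adjusted p = 9.39e-04, edgeR) for Utp14a.

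Other factors of this role followed. Nat10, an RNA cytidine acetyltransferase, had 26.8, 26.2 and 27.4 CPM in immature libraries and 16.6, 12.9, 12.7 and 14.5 CPM in mature libraries. It was 1.89-fold lower, as was Tcof1, the treacle protein that works with RNA polymerase I. Mphosph10 (-0.77), the methyltransferase gene Emg1 (-0.70) and Imp4 (-0.31) were lower on the log2 scale, although Imp4 was called in only 9 of 18 alternatives. Imp3, the most abundant of the role at 33.7 FPKM, had a log2 fold change of 0.19 (adjusted p = 0.428, edgeR), and 0.03 without mature replicate 3.

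Rcl1 was the 1 member of this role that rose. It binds the processome GTPase Bms1, whose own log2 fold change was -0.11 (adjusted p = 0.364, edgeR). Rcl1 had 11.7, 13.4 and 11.8 CPM in immature replicates 1, 2 and 3 and 21.6, 20.3, 26.2 and 21.9 CPM in mature replicates 1, 2, 3 and 4. All mature libraries lay above all immature ones, at a log2 fold change of 0.87 (SE 0.12, adjusted p = 4.04e-04, edgeR). In the UTP-C complex and casein kinase 2, Nol6 was lower (-0.34) and the catalytic subunit Csnk2a2 higher (0.22, adjusted p = 0.0401, edgeR) on the log2 scale, calls made in 14 and 8 of 18 alternatives. The paralog Csnk2a1 had 0.14 (adjusted p = 0.142, edgeR), and 0.18 without mature replicate 3 (adjusted p = 0.00663, edgeR), and the regulatory subunit Csnk2b, at 46.5 FPKM the most abundant, -0.06 (adjusted p = 0.768, edgeR).

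**Figure D2:**
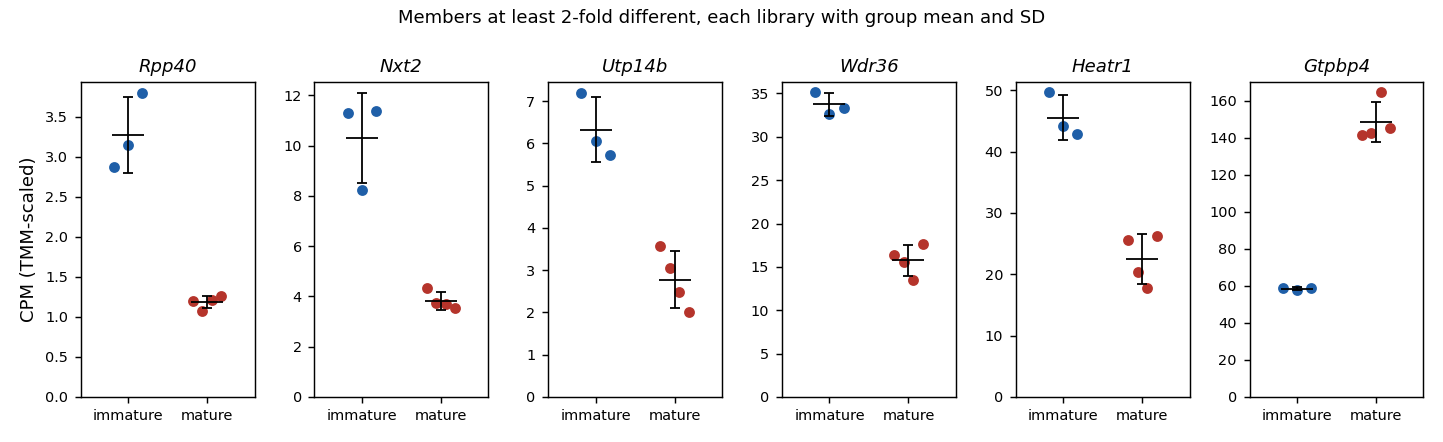
CPM (y axis, linear from 0, a scale for each gene) of the 6 members with an adjusted p under 0.05 and a change of at least 2-fold, in 3 immature (blue) and 4 mature (red) libraries. Bars show the group mean and SD; Rpp40, Nxt2, Utp14b, Wdr36 and Heatr1 are lower and Gtpbp4 is higher in every mature library.

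Of the snoRNP proteins, 3 of 8 were lower and none higher, beside 22.9% and 23.2% of all tested genes. Box C/D snoRNPs methylate the precursor RNA through fibrillarin, encoded by Fbl, on a scaffold of Nop56 and Nop58. Nop58 had 27.4, 27.0 and 28.8 CPM in immature libraries and 14.7, 17.1, 14.9 and 15.9 CPM in mature libraries. Its groups did not overlap, with a log2 fold change of -0.83 (SE 0.09, adjusted p = 1.16e-04, edgeR). Fbl had 63.7, 70.5 and 73.5 CPM in immature libraries and 41.8, 33.7, 58.7 and 39.1 CPM in mature libraries, with the highest mature value in replicate 3. The log2 fold change of Fbl was -0.68 (SE 0.17, adjusted p = 0.012, edgeR), while Nop56 had -0.19 (adjusted p = 0.147, edgeR), or -0.21 without mature replicate 3 (adjusted p = 0.038, edgeR), and Snu13, the most abundant at 18.3 FPKM, 0.08 (adjusted p = 0.619, edgeR).

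Box H/ACA snoRNPs convert uridine to pseudouridine through dyskerin, encoded by Dkc1. Dkc1 had 12.3, 13.4 and 11.8 CPM in immature libraries and 7.91, 7.50, 8.49 and 8.27 CPM in mature libraries. The groups did not overlap, and the log2 fold change was -0.63 (SE 0.11, adjusted p = 0.00177, edgeR). The small partner proteins were not called. Nhp2 had a log2 fold change of -0.30 (adjusted p = 0.259, edgeR) and -0.50 without mature replicate 3 (adjusted p = 7.52e-04, edgeR), and Nop10 had 0.20 (adjusted p = 0.48, edgeR) and 0.02 without that library.

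RNase MRP and RNase P share protein subunits and cut precursor RNA. Of 8 tested subunits, 1 was lower and 2 were higher, 12.5% and 25.0% beside 22.9% and 23.2% of all tested genes. Rpp40 (ENSMUSG00000021418, chromosome 13, 35893472 to 35906359, minus strand) had 2.88, 3.15 and 3.80 CPM in immature replicates 1, 2 and 3 and 1.20, 1.07, 1.21 and 1.26 CPM in mature replicates 1, 2, 3 and 4. The gene was low in both groups and did not overlap between them, with a log2 fold change of -1.46 (SE 0.21, adjusted p = 4.50e-04, edgeR). Pop4 (0.40, adjusted p = 0.0467, edgeR) and Pop5 (0.48, adjusted p = 0.0496, edgeR) were higher on the log2 scale, close to the threshold, and were called in 11 and 12 of 18 alternatives. Rpp25l had 0.31 (adjusted p = 0.281, edgeR), and 0.13 without mature replicate 3, and its paralog Rpp25 was not tested.

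Among large subunit factors and GTPases, 4 of 8 members were lower (50.0%) and 1 was higher (12.5%). The shares of all tested genes were 22.9% and 23.2%. The largest rise of any member was that of Gtpbp4, a nucleolar GTPase of the large subunit precursor (ENSMUSG00000021149, chromosome 13, 8966331 to 8996083, minus strand). Gtpbp4 had 59.0, 57.7 and 58.8 CPM in immature replicates 1, 2 and 3 and 141.7, 142.8, 164.6 and 145.3 CPM in mature replicates 1, 2, 3 and 4. All mature libraries lay above all immature ones, with mature replicate 3 the highest and apart from the other mature libraries, and the means were 58.5 ± 0.702 (SD, n = 3) and 148.6 ± 10.7 (SD, n = 4). The level was 2.54-fold higher, a log2 fold change of 1.35 (SE 0.08, adjusted p = 3.32e-06, edgeR).

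The other GTPases of this role did not share that rise. Gnl3, which encodes nucleostemin, had 31.1, 28.7 and 29.3 CPM in immature libraries and 19.0, 16.6, 15.5 and 17.3 CPM in mature libraries, without overlap. Its log2 fold change was -0.80 (SE 0.10, adjusted p = 2.04e-04, edgeR). The paralog Gnl3l had -0.65 (SE 0.17, adjusted p = 0.014, edgeR) and Gnl2 -0.08 (adjusted p = 0.448, edgeR). Rbm28 (-0.49) and the large AAA ATPase gene Mdn1 (-0.74) were also lower on the log2 scale, called in 18 and 13 of 18 alternatives. Mdn1 had its lowest value, 11.2 CPM, in mature replicate 3, against 19.7 to 22.3 CPM in the other mature libraries.

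Late cytoplasmic steps were divided. Sbds and Efl1 encode the pair that releases Eif6 from the large subunit, and Lsg1 encodes a GTPase that acts with Nmd3. Sbds had 47.2, 49.3 and 48.1 CPM in immature replicates 1, 2 and 3 and 82.8, 82.2, 105.2 and 79.3 CPM in mature replicates 1, 2, 3 and 4. It was 1.81-fold higher in mature cells without overlap, with a log2 fold change of 0.86 (SE 0.11, adjusted p = 2.88e-04, edgeR). Its partner Efl1 was lower, at -0.29 (SE 0.08, adjusted p = 0.0221, edgeR), a call made in 6 of 18 alternatives, and Lsg1 was lower at -0.54 (SE 0.09, adjusted p = 0.00148, edgeR). Eif6, the most abundant of the role at 34.4 FPKM, had -0.12 (adjusted p = 0.467, edgeR), or -0.21 without mature replicate 3 (adjusted p = 0.026, edgeR). None of the 4 late small subunit factors was called with all libraries, beside 22.9% lower and 23.2% higher among all tested genes. On the log2 scale the kinase genes Riok1 and Riok2 had -0.19 and -0.08, and the endonuclease gene Nob1 had 0.15, and 0.04 without mature replicate 3. Ak6 had 55.5 CPM in mature replicate 3, which overlapped the immature libraries, against 34.1 to 39.5 CPM in the other mature libraries. Its log2 fold change was -0.37 with all libraries and -0.52 without mature replicate 3 (adjusted p = 1.34e-04, edgeR).

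Exonucleases and Drosha were the role with most rises, 3 of 6 members (50.0%), and 1 was lower (16.7%). Over all tested genes 23.2% were higher and 22.9% lower. Rexo5 had 3.44, 4.42 and 4.23 CPM in immature libraries and 7.11, 7.48, 6.77 and 6.65 CPM in mature libraries. The groups did not overlap, and the log2 fold change was 0.80 (SE 0.15, adjusted p = 0.00252, edgeR). Drosha (0.45) and Xrn2 (0.31) were higher and Rexo2 (-0.58) was lower on the log2 scale, while Rexo1 had -0.09 (adjusted p = 0.467, edgeR). The calls of Drosha and Xrn2 were made in 16 and 12 of 18 alternatives.

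Nuclear export held members in opposite directions. Nxt1 and Nxt2 encode paralogous partners of Nxf1, the export receptor of mRNA. Nxt2 (ENSMUSG00000042271, chromosome X, 142226770 to 142239692, plus strand) had 11.3, 8.25 and 11.4 CPM in immature replicates 1, 2 and 3 and 4.32, 3.73, 3.71 and 3.52 CPM in mature replicates 1, 2, 3 and 4. Nxt2 was 2.70-fold lower without overlap, with a log2 fold change of -1.43 (SE 0.16, adjusted p = 1.32e-04, edgeR), and Nxt1 had -0.10 (adjusted p = 0.733, edgeR). Nxf1 had 137.7, 146.1 and 132.0 CPM in immature libraries and 243.5, 230.7, 218.4 and 228.1 CPM in mature libraries. The groups were apart, at a log2 fold change of 0.73 (SE 0.08, adjusted p = 7.93e-05, edgeR).

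Ran, the most abundant member at 56.8 FPKM, had 177.1, 194.7 and 185.3 CPM in immature libraries and 137.7, 127.5, 193.8 and 139.0 CPM in mature libraries. The groups overlapped through mature replicate 3 alone. The log2 fold change was -0.31 (SE 0.14, adjusted p = 0.105, edgeR) with all libraries and -0.44 without mature replicate 3 (adjusted p = 1.11e-04, edgeR). Xpo1 had -0.15 (adjusted p = 0.29, edgeR), and -0.04 without mature replicate 3, and Nxf2 and Nxf7 were at or below 1.33 CPM in every library.

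The tested members had a median of 6.16 FPKM, beside 2.71 FPKM over all tested genes, and ranged from 0.153 to 56.8 FPKM. The 76 members lie on 20 chromosomes, with 7 on the X chromosome. The coordinates of 29 members overlap those of another gene in the table, 15 of them on the opposite strand alone. Among the named members, Dkc1, Gnl3, Heatr1, Wdr3, Emg1, Nhp2, Nop56, Ak6 and Rpp25l overlap genes on the opposite strand with a mean of 23.6 CPM or more, and Riok2, Csnk2a2 and Tbl3 overlap genes with 1.16, 1.06 and 0.646 CPM. The other opposite-strand partners of named members had at most 0.132 CPM. On the same strand Ak6 overlaps Taf9 and Utp14b overlaps Acsl3, and the other partners had at most 0.388 CPM. Whether the counting used strand is not given in the sources used here, so their values are uncertain to that extent.

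Assembly factors and RNA polymerase I genes outside the KEGG pathway, and transcription factors of the MYC network, were taken from 3 lists, of which 126 of 127 genes were tested. At an adjusted p under 0.05, 48 were lower (38.1%) and 17 higher (13.5%), beside 22.9% and 23.2% of all tested genes, with a median log2 fold change of -0.14. Without mature replicate 3 these counts were 58 and 21, beside 28.3% and 29.1% of all genes in that fit. Among 95 assembly factors, 38 were lower (40%) and 8 higher (8.42%). Rrp12, a factor of small subunit export, had 20.0, 20.0 and 17.4 CPM in immature libraries and 7.67, 6.98, 6.77 and 6.19 CPM in mature libraries. It was 2.77-fold lower without overlap (adjusted p = 1.58e-05, edgeR), and Ltv1 (-1.13) and Utp20 (-1.01) were lower on the log2 scale. The helicase gene Ddx18 had 50.5, 48.7 and 44.8 CPM in immature libraries and 112.7, 115.9, 115.7 and 113.0 CPM in mature libraries, and was 2.38-fold higher (adjusted p = 3.16e-06, edgeR). Nop53 (1.01) and Npm1 (0.47) were higher on the log2 scale, and nucleolin, encoded by Ncl, had 0.08 (adjusted p = 0.528, edgeR).

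In the RNA polymerase I machinery 5 of 20 genes were lower and 5 higher, 25.0% each and near the 22.9% and 23.2% of all tested genes. Polr1a, the largest subunit of the enzyme, had 37.6, 32.7 and 35.6 CPM in immature libraries and 14.6, 15.1, 11.3 and 15.6 CPM in mature libraries. The groups did not overlap, and the log2 fold change was -1.32 (SE 0.13, adjusted p = 4.64e-05, edgeR). Polr1c (0.94) and Polr1d (0.85), subunits shared with RNA polymerase III, were higher on the log2 scale. The initiation factor gene Rrn3 was lower (-0.37), and Ubtf had -0.07 (adjusted p = 0.516, edgeR).

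MYC, MYCL and the MXD proteins bind the same DNA letters with MAX, and MYC is known as an activator of ribosome biogenesis genes. In the MYC network 5 of 11 tested genes were lower and 4 higher, 45.5% and 36.4% beside 22.9% and 23.2% of all tested genes. Myc had 36.2, 35.7 and 35.1 CPM in immature replicates 1, 2 and 3 and 7.88, 5.11, 6.98 and 7.64 CPM in mature replicates 1, 2, 3 and 4. Mycl had 12.3, 14.5 and 11.8 CPM in immature libraries and 87.8, 106.2, 94.1 and 125.7 CPM in mature libraries. These paralogs moved in opposite directions without overlap, with log2 fold changes of -2.37 (SE 0.15, adjusted p = 4.02e-06, edgeR) and 3.01 (SE 0.15, adjusted p = 1.27e-06, edgeR). Mxd1, which encodes a repressor partner of MAX, was 3.58-fold higher (adjusted p = 9.99e-07, edgeR), and Mxd3 was lower (-1.66). Whether these changes bear on the members was not tested.

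**Figure D3:**
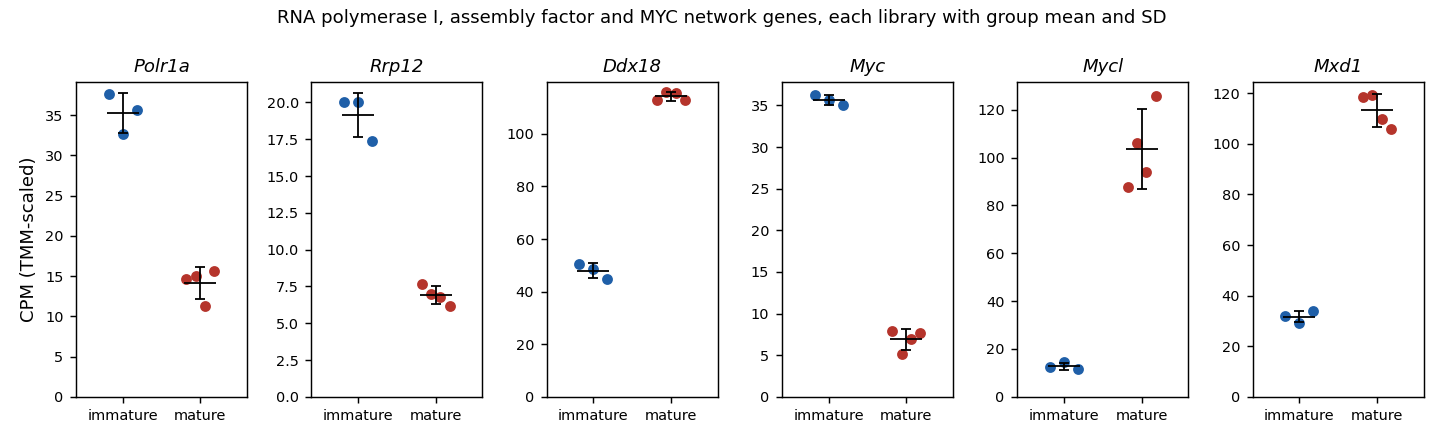
CPM (y axis, linear from 0, a scale for each gene) of Polr1a, the assembly factor genes Rrp12 and Ddx18 and the MYC network genes Myc, Mycl and Mxd1 in 3 immature (blue) and 4 mature (red) libraries. Bars show the group mean and SD; Polr1a, Rrp12 and Myc are lower and Ddx18, Mycl and Mxd1 higher in every mature library.

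The letters CACGTG, the E-box that reads the same on both strands, were searched in RefSeq promoter windows of 300 bases (GRCm38.p6), 250 before and 50 from the gene start on. Of the 63 members with a window, 61 were tested, and of these 13 (21.3%) held them, beside 11.2% of 11651 tested genes and 8.09% of all 27025 genes with a window. The share was 5 of 21 among lower members, 1 of 9 among higher members and 7 of 31 among tested members not called. CCGGAAG, searched on both strands, was in 22 of the 61 (36.1%), beside 18.5% of the tested genes and 9.93% of all genes. A match describes the letters of the window and not binding.

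Windows with CACGTG of the 6 called members are shown because proteins of the MYC network are known to bind these letters. Capitals mark the motif, and each run reads 5′ to 3′ on the strand of the gene. Those of the lower members are chr1:34439579-34439878 (Imp4, plus strand), chr1:78658190-78658489 (Utp14b, plus strand), chr4:32656869-32657168 (Mdn1, plus strand), chr8:106893390-106893689 (Utp4, plus strand) and chr9:48480562-48480861 (Rexo2, minus strand). That of the higher member is chr2:147012749-147013048 (Xrn2, plus strand). The RefSeq start of Utp14b lies inside the gene as the table gives it.
Imp4: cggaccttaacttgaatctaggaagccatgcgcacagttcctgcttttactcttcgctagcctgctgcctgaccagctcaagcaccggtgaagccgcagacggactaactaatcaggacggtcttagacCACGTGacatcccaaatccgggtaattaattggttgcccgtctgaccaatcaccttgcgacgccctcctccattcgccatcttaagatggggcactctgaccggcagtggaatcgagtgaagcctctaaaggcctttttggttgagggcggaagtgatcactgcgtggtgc
Utp14b: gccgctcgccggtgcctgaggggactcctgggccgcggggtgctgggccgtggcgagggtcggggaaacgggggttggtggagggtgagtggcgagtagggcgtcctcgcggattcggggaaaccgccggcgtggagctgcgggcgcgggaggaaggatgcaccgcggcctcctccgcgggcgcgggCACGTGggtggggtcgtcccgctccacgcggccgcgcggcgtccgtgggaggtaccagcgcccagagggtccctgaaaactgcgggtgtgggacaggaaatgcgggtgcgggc
Mdn1: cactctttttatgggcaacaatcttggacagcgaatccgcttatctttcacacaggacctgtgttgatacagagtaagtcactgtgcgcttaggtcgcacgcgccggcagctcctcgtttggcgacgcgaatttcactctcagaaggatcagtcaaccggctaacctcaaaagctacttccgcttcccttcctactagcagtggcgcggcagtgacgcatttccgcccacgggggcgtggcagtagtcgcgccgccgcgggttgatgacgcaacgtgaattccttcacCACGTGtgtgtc
Utp4: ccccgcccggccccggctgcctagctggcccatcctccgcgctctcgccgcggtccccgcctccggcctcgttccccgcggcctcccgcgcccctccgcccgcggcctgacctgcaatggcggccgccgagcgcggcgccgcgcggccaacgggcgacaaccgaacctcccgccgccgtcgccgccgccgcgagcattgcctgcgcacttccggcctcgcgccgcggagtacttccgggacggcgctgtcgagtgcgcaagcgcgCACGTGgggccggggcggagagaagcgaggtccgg
Rexo2: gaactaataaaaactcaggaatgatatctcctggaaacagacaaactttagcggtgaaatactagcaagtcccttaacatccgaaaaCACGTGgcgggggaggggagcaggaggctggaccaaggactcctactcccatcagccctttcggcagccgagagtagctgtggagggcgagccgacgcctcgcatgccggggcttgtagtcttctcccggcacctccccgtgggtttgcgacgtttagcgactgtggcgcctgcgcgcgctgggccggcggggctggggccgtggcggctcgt
Xrn2: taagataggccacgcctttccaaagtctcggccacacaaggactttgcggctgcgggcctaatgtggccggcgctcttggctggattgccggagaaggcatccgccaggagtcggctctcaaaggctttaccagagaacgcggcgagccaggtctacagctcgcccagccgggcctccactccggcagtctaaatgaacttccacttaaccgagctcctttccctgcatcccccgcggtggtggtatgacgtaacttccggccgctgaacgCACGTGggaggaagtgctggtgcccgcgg

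Marker genes of other cell states moved with the groups. All 7 proliferation markers were lower in mature BMDCs, and their summed CPM was 490.8, 520.9 and 517.3 in immature replicates 1, 2 and 3 and 223.5, 184.7, 190.5 and 180.6 in mature replicates 1, 2, 3 and 4. Pcna was the most abundant of them per length and Mki67 had a log2 fold change of -2.06. All 6 macrophage markers were lower, with sums of 1180, 1181 and 1183 CPM in immature and 225.2, 226.8, 274.0 and 240.7 CPM in mature libraries, and Cd68 was the most abundant per length. Of 7 dendritic cell markers, Flt3, Zbtb46, Cd86 and Ccr7 were higher, Itgax was lower, Cd74 and H2-Ab1 were not called, and Cd74 was the most abundant per length. Their sums were 9043, 9054 and 9683 CPM in immature and 13020, 12200, 17100 and 13050 CPM in mature libraries. The part of these differences in the values of the members was not tested.

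Mature libraries also differed in cardiac and skeletal muscle genes. All 6 markers were higher with all libraries, and Myl2 was at 0 in every immature library. Their summed CPM was 2.18, 2.21 and 2.59 in immature libraries and 2.47, 541.2, 640.3 and 566.0 in mature replicates 1, 2, 3 and 4, with Actc1 the most abundant per length. Mature replicate 1, which had no more of them than immature libraries, was compared alone with the immature libraries, a choice made after seeing the data. In that fit 30 members were lower and 10 higher at an adjusted p under 0.05, beside 22.5% and 20.2% of 18329 genes. Of these members 26 and 7 were among the 27 and 10 members called with all libraries. The lone mature library is assumed there to vary like the immature ones. Summed markers were at most 3.02 CPM for neutrophils, 1.36 for B cells, 6.03 for T cells, 3.97 for NK cells, 1.21 for mast cells and basophils and 2.08 for erythroid cells. Of these lists S100a8 was lower, and Cd8a, Hbb-bs and Hba-a1 were higher. The 2 other tested neutrophil markers had positive log2 fold changes and were not called. The most abundant genes per length of each list were S100a8, Cd79b, Cd8a, Gzma, Cpa3 and Hbb-bs. Fibroblast markers summed to 12.6 to 30.4 CPM and epithelial markers to 59.2 to 77.3 CPM, with Col3a1 and Cdh1 the most abundant per length. Dcn, Col1a2 and Epcam were higher. The 4 other epithelial markers had negative log2 fold changes and were not called, and the median of that list was -0.529. The part of these lists in the values of the members was not tested.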

How the data were processed

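RNA of 3 libraries of immature and 4 of mature BMDCs was analysed. Poly(A) RNA libraries were sequenced in pairs by the study. For each gene and library the authors deposited raw read counts as integers, and FPKM values, which scale counts by gene length and library total. The submitters' processing notes name cutadapt 1.9, HISAT2 2.2.1, StringTie 2.1.6, DESeq2, edgeR and the build mm9. The gene coordinates deposited are those of GRCm38, equal to GENCODE M21 for 25842 of 28588 genes found there and for 72 of the 76 members, so GRCm38 is given here.

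Tests on counts used edgeR 4.0.16 under R 4.3.3 (filterByExpr, TMM, quasi-likelihood test with the group as the only term, Benjamini-Hochberg over all 17461 tested genes). An SE is the size of the log2 fold change divided by the square root of F. The members and lists were chosen with earlier results of these data known. Named genes are, in each of 12 roles, the member with the highest mean FPKM, the largest and the smallest log2 fold change and those past both criteria, paralog pairs, and the 3 genes with the largest change of each of 3 pathway lists with Polr1a, Ubtf, Rrn3, Npm1, Ncl, Myc and Mycl. A further 24 genes were named with their values in view: the other called members, the other pathway genes past both criteria, Bms1, Gnl2, Nop56, Nxf7 and Xpo1. The 12 marker lists are those named in the results.

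Alternatives were DESeq2 1.42.0, RLE factors, library totals alone, no filter, a filter that kept genes reaching 1 FPKM in 3 or more libraries, limma 3.58.1 on log2(FPKM + 1) and log2(FPKM + 0.1), the omission of each library, the replicate number as a block, and a gene length offset (lowess span 0.3) alone or with the block. Mature replicate 1 alone was added after seeing the data. The scripts were tested on simulated counts with 100 genes changed 1.5-fold and 100 changed 4-fold. Of these edgeR called 19 and 90, with 5 false calls. DESeq2 called 49 and 100, with 63 false calls, and limma 19 and 83, with 5. A 1.5-fold change can thus go uncalled. Sequences are from RefSeq, and tables and figures were made with Python 3.11.15, pandas 2.3.3, numpy 2.4.6, scipy 1.17.1 and matplotlib 3.10.9.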

Additional observations from a re-analysis of the deposited data

Results flagged for a closer look

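Among 77 values compared over the 4 mature libraries (the CPM of 76 named genes and the summed CPM of the members), 8 had 1 library far from the others by Dixon's ratio, which sets the distance of the extreme library from its neighbor against the full range. Chance marks about 1 in 20 such groups. Mature replicate 3 was that library in all 8, high in 7 and low for Xpo1, whose ratio was 0.887. For the high values the rest is as follows. The ratio was 0.93 for Nhp2 (46.9 CPM in mature replicate 3, 27.1 to 28.5 CPM in the other mature libraries), 0.898 for Eif6 (119.7 CPM against 88.8 to 91.9 CPM) and 0.867 for Nop10 (27.1 CPM against 15.7 to 17.2 CPM). It was 0.865 for Sbds, 0.861 for Nop53, 0.857 for Rexo2 and 0.842 for Gtpbp4. Sbds, Nop53 and Gtpbp4 were higher and Rexo2 lower in mature cells with the library left out as well. The part of gene length in these values was not tested.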

How the results depend on the processing

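Across 18 alternatives, 1226 of 1353 values of 76 named genes kept their direction and their side of the threshold, 68 lost and 19 gained the call, and 40 changed sign. The number of members lower by 2-fold with an adjusted p under 0.05 was 5, and became, with the share of all genes lower by the same criteria in parentheses, 2 (11%) when genes had to reach 1 FPKM in 3 or more libraries, 3 (8.64%) with library totals alone, 1 (9.96%) and 0 (6.99%) with limma on log2(FPKM + 0.1) and log2(FPKM + 1), and 3 (9.90%) with mature replicate 1 alone. The FPKM filter and limma fits tested 69 members, without Rpp40 and Utp14b. At an adjusted p alone, limma called 21 of 69 members lower and 11 higher in both fits. Beside them, 26.2% and 26.5% of all genes were lower and 30.9% and 31% higher. DESeq2 called 27 of 76 members lower, beside 14.5% of all 27808 genes with any count. Those were 4027 genes, against 4006 of the 17461 genes in the main fit, so that share is not comparable with shares of filtered genes. Where limma on log2(FPKM + 1) called 0 by both criteria, 0 were past the fold at an unadjusted p under 0.05 and 22 were lower at that p alone. The median log2 fold change of the members was -0.084 with library totals alone, -0.078 with limma on log2(FPKM + 0.1) and -0.059 with limma on log2(FPKM + 1), -0.101 with the length offset and -0.104 with the block and the offset; the cause was not tested. Library totals alone moved the median of all genes up by 0.104, DESeq2 by 0.125 and no filter by 0.116, the last 2 over 27808 genes. Members higher at an adjusted p alone numbered 5 to 13 when each library was left out, beside 17.2% to 29.1% of all genes.

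Genes that changed sign were not called in any of these fits. With library totals alone, log2 fold changes were Bms1 0.002, Gnl2 0.027, Csnk2b 0.041, Wdr43 0.050, Riok2 0.026, Rexo1 0.021 and Ubtf 0.038. With the length offset they were Gnl2 0.031, Wdr43 0.017, Riok2 0.039, Rexo1 0.009 and Ubtf 0.040. With limma on log2(FPKM + 0.1) they were Bms1 0.001, Gnl2 0.027, Csnk2b 0.034, Wdr43 0.045, Riok2 0.025, Rexo1 0.015 and Ubtf 0.042, and on log2(FPKM + 1) Bms1 0.002, Gnl2 0.025, Csnk2b 0.034, Wdr43 0.041, Riok2 0.021, Rexo1 0.014 and Ubtf 0.039. With mature replicate 1 alone they were Imp3 -0.034, Snu13 -0.060, Wdr43 0.069 and Rexo1 0.002. With each library left out, Utp18 ranged from -0.054 to 0.048, Csnk2b from -0.150 to 0.045, Nxt1 from -0.235 to 0.031 and Snu13 from -0.010 to 0.131. The cause was not tested.

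The deviations of same-numbered libraries from the group means correlated at 0.0285, -0.00114 and 0.0144 over genes. These values cannot tell whether such libraries shared a mouse or culture, since technical differences between libraries enter the deviations too. With the replicate block 26 members were lower and 7 higher at an adjusted p under 0.05, beside 18.9% and 18.1% of all 17461 genes, and 5 and 1 with the fold added, beside 9.62% and 11.1%. With the block and the length offset the log2 fold changes that turned were Gnl2 0.027, Wdr43 0.055, Riok2 0.003, Rexo1 0.017 and Ubtf 0.042. Depth limits most the 3 untested members, Nxf2 and Nxf7.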
